A study of Mus musculus with 6 samples.

Results

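Toll-like receptors are the membrane receptors through which innate immune cells detect molecules of microbes. Their transcripts were followed here in mouse leukemia samples that were either treated with CCL5, a chemokine, or kept under control conditions. The 10 genes Tlr1 to Tlr9 and Tlr13 were taken by symbol, and all 10 were among the 23337 genes of the count table. Of these, 9 passed the filter on low counts, as did 12174 genes in all, and Tlr3 did not. The leukemia is labelled primary, neonatal and murine, the series title calls it MLL-rearranged, and polyadenylated RNA was sequenced. There were 3 libraries with CCL5 (ccl5 replicates 1 to 3) and 3 without (control replicates 1 to 3). Only the controls are numbered in the labels. The ccl5 numbers were assigned here, so equal numbers mark no pairing. Values below are listed in replicate order. Ccl5 replicate 1 is labelled a tertiary transplant, ccl5 replicates 2 and 3 and control replicate 3 are labelled primary transplants, and control replicates 1 and 2 carry no transplant label. The source names also carry codes, neo30 for ccl5 replicate 1 and neo10 for ccl5 replicates 2 and 3 and control replicate 3, which the labels do not explain. The fusion partner, host strain, CCL5 dose and exposure time are not given in the sources used here, nor whether the libraries of a group came from separate animals or cultures. If they did not, p-values measure only the spread between these libraries, which may be technical.

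As background, each receptor pairs an ectodomain of leucine-rich repeats, which binds the ligand, with a cytoplasmic TIR domain that recruits adaptors. TLR1, TLR2, TLR4, TLR5 and TLR6 sit at the cell surface and detect bacterial lipopeptides, lipopolysaccharide and flagellin. TLR3, TLR7, TLR8, TLR9 and TLR13 sit in endosomes and detect nucleic acids. Signals run through MyD88 or TRIF to kinases, NF-kB and interferon regulatory factors. In the blood system monocytes, macrophages and neutrophils are the main carriers, so myeloid leukemias commonly express them.

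The 6 libraries did not fall into the 2 labelled groups but into 3 closely alike pairs, and every result on the receptors rests on that layout. Ccl5 replicates 1 and 3 formed a pair, as did control replicates 1 and 2, and ccl5 replicate 2 paired with control replicate 3. As sources of receptor differences between the pairs, different leukemias, exchanged labels and treatment cannot be told apart. This bears on every value for ccl5 against control. Within these pairs the estimated coefficient of variation between libraries was 4.62% to 7.35%, against 53.8% to 65.4% for the other 12 pairings. No pair agreed within sampling noise (chi-square per degree of freedom of at least 3.55), so all 6 libraries were kept. That check does not show that the libraries of a pair came from separate animals or cultures. Ccl5 replicates 1 and 3 held 29408 and 25725 reads of Xist, the RNA of the inactive X chromosome, and 0 reads of 4 Y-linked genes. The other libraries held 5103 to 7777 Y-linked reads and at most 77 of Xist. Sex-linked reads therefore separated ccl5 replicates 1 and 3 from ccl5 replicate 2 as well as from the controls. Total counts ran from 13421100 to 18445095 per library, and 3 counts corresponded to 0.160 to 0.273 CPM (depth-scaled counts, on library sizes adjusted by TMM), a level not told apart from 0.

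Tlr13 was the receptor with the highest level per kilobase of exon in all 6 libraries, and Tlr9, Tlr5 and Tlr3, in that order, had the lowest. In controls the level of Tlr13, whose product detects bacterial ribosomal RNA, was 35.1 ± 15.6 CPM per kilobase (SD, n = 3). It was followed by Tlr2 at 17.4 ± 7.49, Tlr7 at 14.1 ± 6.13 and Tlr4 at 12.7 ± 1.80 CPM per kilobase, whose ranges overlapped. Tlr1 at 8.62 ± 4.06 and Tlr6 at 8.20 ± 1.03 CPM per kilobase also did not differ beyond their spread. Tlr8 lay lower at 3.40 ± 0.470 CPM per kilobase, and Tlr9 at 0.465 ± 0.0891.

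With CCL5 the order in the middle of the list was different. Tlr13 stood at 56.8 ± 36.8 CPM per kilobase and Tlr7 at 22.1 ± 13.1 (SD, n = 3). Tlr2 at 12.4 ± 2.69, Tlr8 at 11.6 ± 6.31, Tlr1 at 9.43 ± 2.57, Tlr6 at 9.10 ± 1.17 and Tlr4 at 7.24 ± 2.66 CPM per kilobase had overlapping ranges. The spread of Tlr13, Tlr7 and Tlr8 within the ccl5 group came from ccl5 replicate 2, which lay below the other ccl5 libraries for all 3 genes.

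The summed level of the 5 endosomal receptors separated the 3 pairs of libraries. In replicate order it was 119.8, 26.8 and 135 CPM per kilobase for ccl5 libraries and 62.7, 67.8 and 28.7 CPM per kilobase for control libraries. The 5 cell-surface receptors summed to 38.0, 40.1 and 37.4 CPM per kilobase with CCL5 and to 48.0, 51.0 and 42.3 in controls. The surface sum thus had a narrower range than the endosomal sum, but its ccl5 and control values did not overlap, with ccl5 lower. This difference in sums was not tested. Single surface receptors were not all as steady as their sum. The highest CPM was 2.36 times the lowest for Tlr1, 2.51 times for Tlr2 and 2.64 times for Tlr4, against 1.36 times for Tlr6. Endosomal receptors made up 75.9%, 40.0% and 78.3% of the summed receptor level in the ccl5 libraries. They made up 56.7%, 57.1% and 40.4% in the control libraries, so the groups overlapped in this share. Since these are bulk samples, fewer cells of a type and less RNA per cell cannot be told apart.

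**Figure D1:**
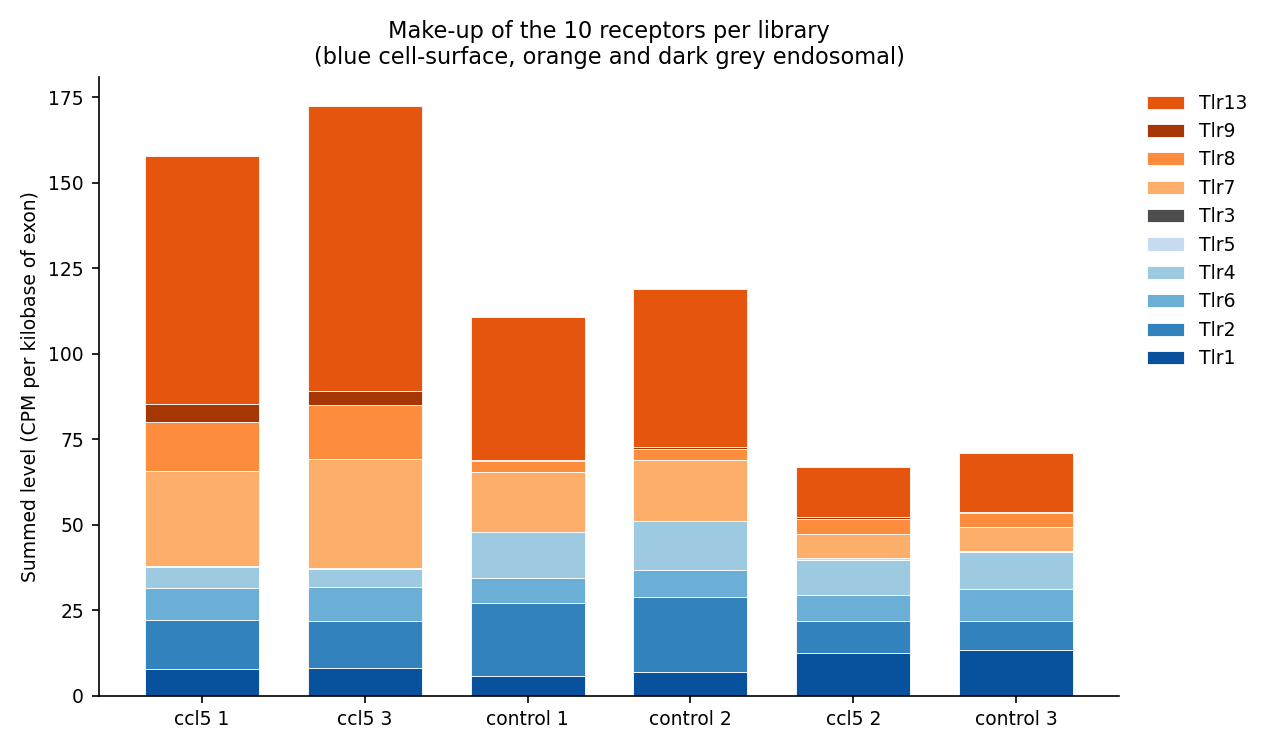
Stacked bars give the level of each of the 10 receptors in CPM per kilobase of exon (vertical axis) for each library (horizontal axis, ordered by closely alike pairs). Endosomal receptors reached 75.9% and 78.3% of the sum in ccl5 replicates 1 and 3, while ccl5 replicate 2 and control replicate 3 had nearly equal sums of 66.9 and 71.0.

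Among the endosomal receptors, Tlr8 and Tlr9 were high in ccl5 replicates 1 and 3 and low in the other 4 libraries. Tlr8 encodes an endosomal RNA sensor and lies on the X chromosome (167242732 to 167263788, minus strand, mm10, 2 exons). It measured 45.3, 13.7 and 50.6 CPM under CCL5 treatment and 9.77, 9.97 and 12.4 CPM without CCL5. The groups did not overlap, but ccl5 replicate 2 exceeded control replicate 3 only by 0.14 on the log2 scale. The fitted log2 fold change was 1.77 (SE 0.50, adjusted p = 0.365 in edgeR's quasi-likelihood test), which did not pass.

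Tlr9, the receptor for unmethylated CpG DNA, lies on chromosome 9 (106222598 to 106226876, plus strand, 2 exons). It measured 18.3, 1.53 and 13.9 CPM under CCL5 treatment and 1.27, 1.87 and 1.71 CPM without CCL5. Ccl5 replicate 2 lay among the controls, so the groups overlapped, and the other ccl5 libraries lay far above every control. The log2 fold change was 2.79 (SE 0.87, adjusted p = 0.365, edgeR), the largest among the 9 tested receptors.

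Tlr7 and Tlr13 took 3 levels, 1 for each pair of alike libraries. Tlr13 (X chromosome, 106143275 to 106160493, plus strand, 3 exons) measured 291, 59.2 and 334 CPM under CCL5 treatment and 168, 186 and 69.0 CPM without CCL5. Tlr7, a sensor of single-stranded RNA and the X-linked neighbour of Tlr8 (167304931 to 167330528, minus strand, 3 exons), measured 103, 26.9 and 118 CPM against 65.4, 66.8 and 26.3 CPM. For both genes ccl5 replicates 1 and 3 were highest, control replicates 1 and 2 lay between, and ccl5 replicate 2 and control replicate 3 were lowest.

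Neither gene passed the test, with log2 fold changes of 0.70 (SE 0.69) for Tlr13 and 0.65 (SE 0.62) for Tlr7. Tlr7, Tlr8 and Tlr13 are X-linked, and the libraries with the most reads of these genes were those with Xist and without Y-linked reads. Over the 367 tested genes of the X chromosome the median log2 fold change was -0.055, against -0.014 over all 12174 tested genes. Both medians are of ccl5 against control and include ccl5 replicate 2, which held Y-linked reads. The part of the Xist difference in the levels of Tlr7, Tlr8 and Tlr13 was not tested. Tlr3, the receptor for double-stranded RNA (chromosome 8, 45395665 to 45410539, minus strand), had 1, 2 and 1 counts with CCL5 and 1, 4 and 3 in controls. It was at or below the floor of 3 counts in 5 of 6 libraries, so no fold is given.

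**Figure D2:**
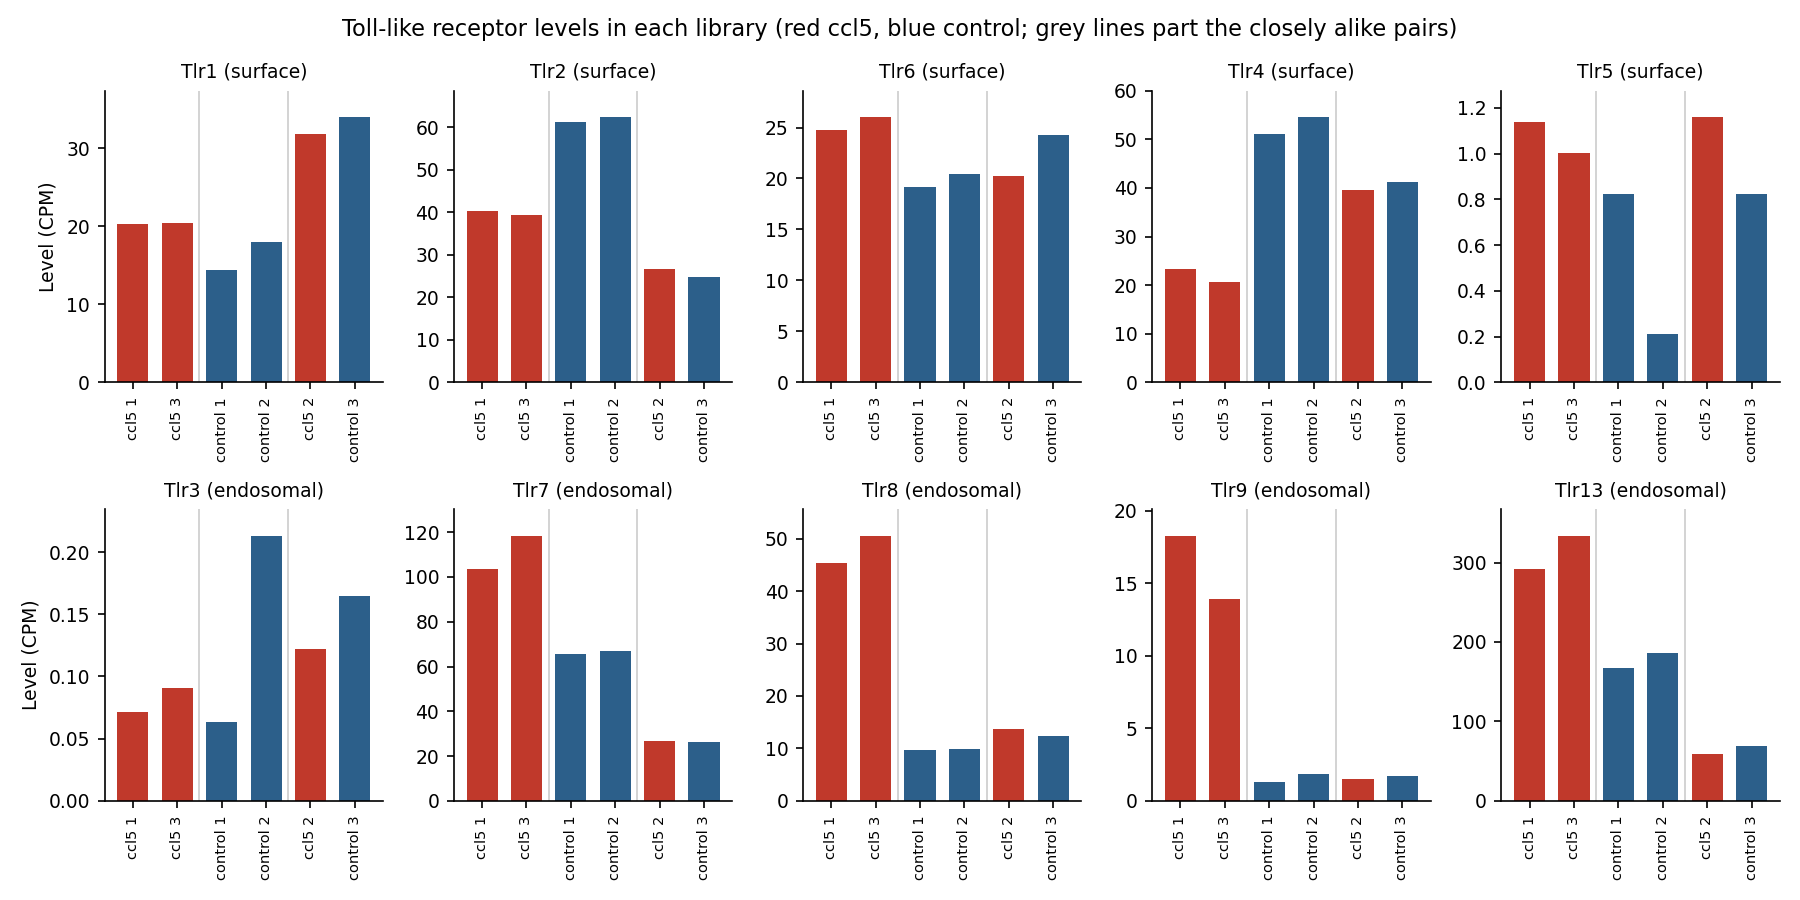
Each panel gives the level of 1 receptor in CPM (vertical axis from 0, with its own scale) for the 6 libraries on the horizontal axis, in red for ccl5 and blue for control, with 1 bar per library and grey lines between the closely alike pairs. Tlr8 and Tlr9 stand out in ccl5 replicates 1 and 3, Tlr7 and Tlr13 step down over the 3 pairs, and Tlr2 and Tlr4 are highest in control replicates 1 and 2.

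The windows before the start sites of Tlr13, Tlr9 and Tlr8 are shown because these endosomal receptors were high in ccl5 replicates 1 and 3. RefSeq (GRCm38.p6, the assembly of mm10) supplied a window of 250 bases before the start for 8 of the 10 members, all but Tlr4 and Tlr7. The windows of Tlr13, Tlr9 and Tlr8 are printed on the strand of each gene. The window for Tlr8 belongs to a start that lies 541 bases upstream of the one in the count table, while the other printed windows end at that table's start. Capitals mark matches on either strand to 5 motifs, which were GAGGAA (a PU.1-type ETS motif), GGNNTTTCC (NF-kB), GAAANNGAA (IRF), TGANTCA (AP-1) and TTGCNNAA (C/EBP), and no printed match overlaps another.
Tlr13, chrX:106143025-106143274, plus strand: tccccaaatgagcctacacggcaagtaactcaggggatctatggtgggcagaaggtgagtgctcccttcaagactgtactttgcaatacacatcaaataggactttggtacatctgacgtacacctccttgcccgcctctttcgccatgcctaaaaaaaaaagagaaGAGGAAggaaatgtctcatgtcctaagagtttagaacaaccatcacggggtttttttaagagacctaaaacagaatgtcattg
Tlr9, chr9:106222348-106222597, plus strand: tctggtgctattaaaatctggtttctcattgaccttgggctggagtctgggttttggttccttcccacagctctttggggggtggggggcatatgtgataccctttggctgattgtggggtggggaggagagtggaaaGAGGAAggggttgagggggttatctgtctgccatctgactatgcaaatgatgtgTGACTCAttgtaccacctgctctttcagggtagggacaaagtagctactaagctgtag
Tlr8, chrX:167264330-167264579, minus strand: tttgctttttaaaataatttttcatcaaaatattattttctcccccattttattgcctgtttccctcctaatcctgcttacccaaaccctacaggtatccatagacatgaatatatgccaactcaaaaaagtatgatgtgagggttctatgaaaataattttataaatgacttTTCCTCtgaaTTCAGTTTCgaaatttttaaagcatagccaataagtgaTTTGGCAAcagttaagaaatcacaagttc

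All 3 of these windows held GAGGAA, at 83 (Tlr13), 112 (Tlr9) and 77 (Tlr8) bases before the start, counted to the first base of the match. The other 5 windows, of Tlr1, Tlr2, Tlr3, Tlr5 and Tlr6, held no match to it. Among 32851 RefSeq windows of the same length 23.3% held it. The Tlr9 window also held TGANTCA (6.75% of all windows), and the Tlr8 window held GAAANNGAA (7.13%) and TTGCNNAA (9.56%). GGNNTTTCC (4.93%) was found before Tlr3 and Tlr5. These are letter matches in short windows and no measurement of binding, and a link between GAGGAA and the levels was not tested.

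Among the surface receptors, Tlr4 was lower in every library with CCL5 than in every control library. Tlr4 encodes the lipopolysaccharide receptor and lies on chromosome 4 (66827811 to 66842796, plus strand, 3 exons). It measured 23.3, 39.6 and 20.7 CPM under CCL5 treatment and 51.0, 54.6 and 41.3 CPM without CCL5. The groups came closest between ccl5 replicate 2 and control replicate 3, at a log2 ratio of -0.060. The log2 fold change was -0.81 (SE 0.29, adjusted p = 0.365, edgeR), which did not pass.

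Tlr2, Tlr1 and Tlr6 encode the lipopeptide receptors, TLR2 forming heterodimers with the products of the other two. Tlr2 (chromosome 3, 83836272 to 83841608, minus strand, 3 exons) measured 40.4, 26.6 and 39.3 CPM under CCL5 treatment and 61.3, 62.4 and 24.9 CPM without CCL5. Control replicates 1 and 2 were highest, control replicate 3 was lowest, and the groups overlapped (log2 fold change -0.48, SE 0.39). Its partners had other layouts.

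Tlr1 (chromosome 5, 64924834 to 64932699, minus strand, 3 exons) measured 20.3, 31.8 and 20.5 CPM against 14.4, 18.02 and 34.0 CPM. Ccl5 replicate 2 and control replicate 3 were highest, where Tlr2 was lowest, and the log2 fold change was 0.13 (SE 0.39). Tlr6, next to Tlr1 on chromosome 5 (64953095 to 64960034, minus strand, 2 exons), measured 24.7, 20.2 and 26.0 CPM against 19.2, 20.5 and 24.3 CPM. It varied least of the 10 members, with a highest value 1.36 times the lowest and a log2 fold change of 0.15 (SE 0.19).

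Tlr1 and Tlr6 share sequence, which bears on their counts. Of all stretches of 100 bases, the read length, 8.85% in the longest coding transcript of Tlr1 occurred unchanged in Tlr6, and 7.24% of those of Tlr6 occurred in Tlr1 (GENCODE M21 transcripts). Reads from these stretches could be counted to either gene. No other tested member shared such a stretch with another gene, and no member's exons overlapped those of another gene in the count table.

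Tlr5, the flagellin receptor (chromosome 1, 182954788 to 182976044, plus strand, 4 exons), was at the edge of detection. It had 16, 19 and 11 counts with CCL5 and 13, 4 and 15 in controls, equal to 1.14, 1.16 and 1.001 CPM against 0.824, 0.213 and 0.825 CPM. The groups did not overlap after scaling, although the counts did. The log2 fold change was 0.83 (SE 0.56, adjusted p = 0.515, edgeR).

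The ccl5 group was set beside the control group, a comparison in which treatment and the layout of alike pairs cannot be told apart. Of the 9 tested members 0 passed an adjusted p of 0.05 in edgeR's quasi-likelihood test, where 0% of the 12174 tested genes passed. At an unadjusted p under 0.05 there were 3 members (Tlr4, Tlr8 and Tlr9), against 13.7% of all tested genes. The groups did not overlap in 3 of the 9 (Tlr4 lower with CCL5, Tlr5 and Tlr8 higher), against 15.8% of all tested genes, with 8.27% higher and 7.49% lower. The log2 fold change was positive for 7 members and negative for 2, and it was positive for 49.0% of all tested genes. Their median log2 fold change was 0.65, beside -0.014 over all tested genes.

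Calls on the receptors depended on ccl5 replicate 2 and on the test. Without that library edgeR called 3 members, Tlr4 (log2 fold change -1.15, adjusted p = 0.0121), Tlr8 (2.16, adjusted p = 0.00294) and Tlr9 (3.31, adjusted p = 0.00371), along with 26.2% of all genes. That fit sets ccl5 replicates 1 and 3, a closely alike pair without Y-linked reads, against the 3 controls, so treatment and the other features of that pair cannot be told apart. DESeq2's Wald test called 0 members and 199 genes, 1.64% of the 12164 genes with an adjusted p. In that test Tlr9 (adjusted p = 0.0512) and Tlr8 (adjusted p = 0.0521) lay just above the threshold. Limma-voom with sample quality weights called 7 members, all but Tlr1 and Tlr5, along with 66.5% of all tested genes. With the closely alike libraries of a group added up, which leaves 2 against 2, edgeR called 0 members and 0 genes.

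The sign of several differences was the opposite when ccl5 replicates 1 and 3 were left out, which leaves ccl5 replicate 2 alone against the 3 controls. The spread in that fit comes from the controls, and the lone ccl5 library is assumed to vary like them. The log2 fold change was then -1.25 (SE 0.69) for Tlr13, -0.98 (SE 0.66) for Tlr7, -0.083 (SE 0.55) for Tlr9 and -0.079 (SE 0.24) for Tlr6. Tlr8 at 0.35 (SE 0.28) and Tlr4 at -0.31 (SE 0.24) kept their direction at a smaller size. None of these passed, and the values for Tlr9 and Tlr6 were well within 1 SE of 0.

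The only closely alike pair that crosses the treatment labels showed no such differences. In ccl5 replicate 2 relative to control replicate 3, both labelled primary transplants, the log2 ratios of 8 members lay between -0.27 (Tlr6) and 0.14 (Tlr8). Tlr5 stood at 0.49, from 19 and 15 counts. For the same 8 members the log2 ratios ran from -0.20 to 0.39 between ccl5 replicates 1 and 3 and from -0.56 to -0.026 between control replicates 1 and 2, which carry the same treatment label. With 1 library on each side there is no test.

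**Figure D3:**
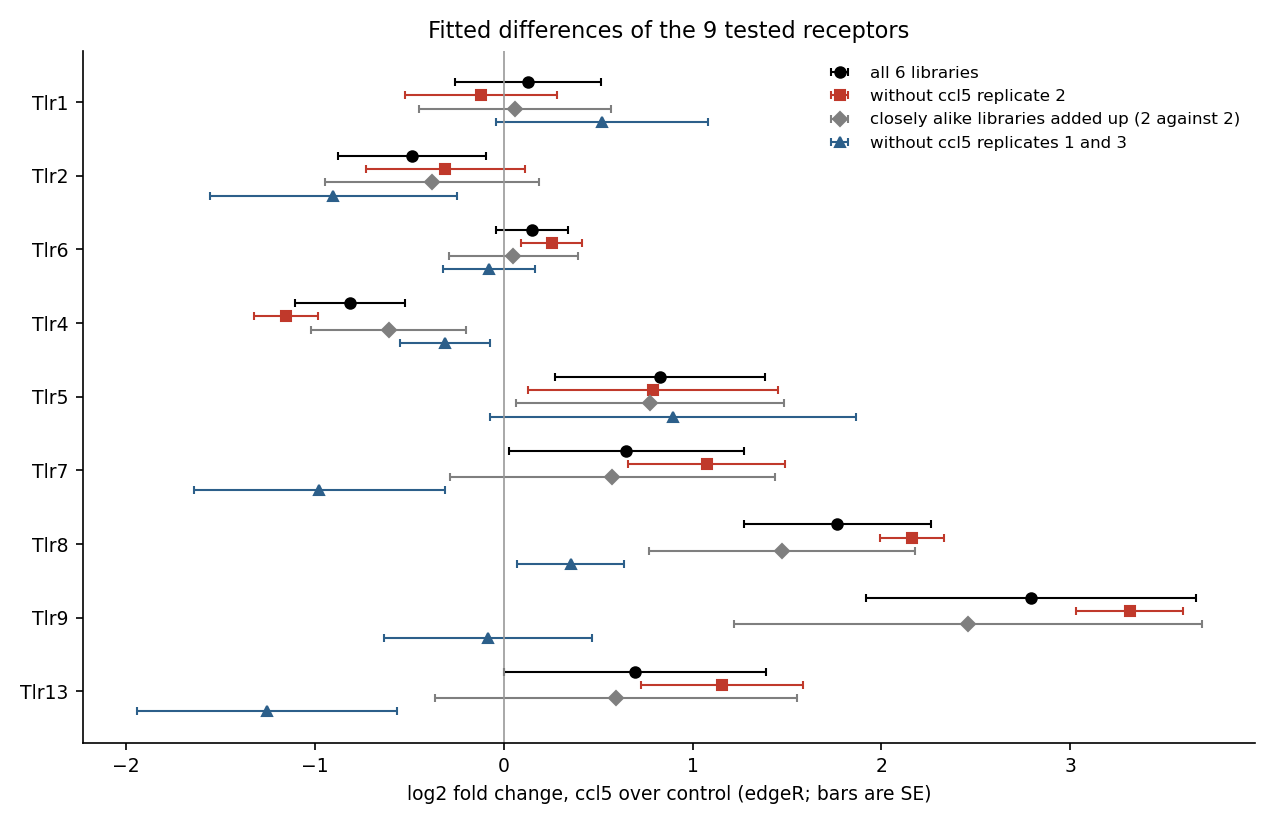
Points give the log2 fold change of ccl5 over control (horizontal axis) for the 9 tested receptors (vertical axis) from edgeR fits to all 6 libraries and to 3 subsets or sums of them, with bars of 1 SE. Tlr8 and Tlr9 lie at 1.77 and 2.79 with all libraries and at 0.35 and -0.083 without ccl5 replicates 1 and 3, and Tlr7 and Tlr13 change side.

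The genes that serve the receptors are given by role, from lists described with the processing. None of their tested members passed the test (adjusted p of at least 0.365 in edgeR), so their values are descriptions. Among relatives of the receptors, Tlr11 and Tlr12 had at most 3 counts in any library. Cd180, a surface receptor related to TLR4, measured 159, 21.0 and 170.3 CPM under CCL5 treatment and 29.7, 30.2 and 20.4 CPM without CCL5, the layout of Tlr9.

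Of 6 tested co-receptors and accessory proteins 3 had a positive and 3 a negative log2 fold change. Cd14, which hands lipopolysaccharide to TLR4, measured 31.3, 17.6 and 29.9 CPM under CCL5 treatment and 195, 188 and 18.4 CPM without CCL5, so control replicates 1 and 2 stood apart. Ly96 encodes MD-2, the lipopolysaccharide-binding partner of TLR4. It measured 10.6, 2.26 and 12.6 CPM against 5.90, 6.24 and 2.48 CPM, the layout of Tlr13 rather than of Tlr4.

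Lilra5, a leukocyte receptor, did not pass the filter and had at most 10 counts in a library. Cd36, a scavenger receptor that assists TLR2, measured 70.5, 3.18 and 73.0 CPM against 0.571, 1.07 and 5.06 CPM. Ly86, which encodes the partner of CD180, measured 132, 39.9 and 154 CPM against 49.4, 47.4 and 46.0 CPM. Both were high only in ccl5 replicates 1 and 3. Trem1, an amplifier of receptor signals, measured 0.783, 6.11 and 0.637 CPM against 39.4, 39.9 and 7.59 CPM, without overlap. Lbp, the lipopolysaccharide-binding protein, measured 36.4, 227 and 23.5 CPM against 81.0, 80.3 and 215 CPM and was highest where Tlr13 was lowest.

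The 5 proteases that trim endosomal receptors to their active form all had a higher fold change, with a median log2 value of 3.08. Lgmn, asparagine endopeptidase, measured 921, 94.6 and 887 CPM under CCL5 treatment and 70.1, 62.1 and 88.5 CPM without CCL5. Ctss (cathepsin S) ran at 4024, 499 and 4800 CPM against 296, 282 and 523 CPM, and Ctsk measured 28.6, 3.91 and 35.2 CPM against 1.015, 1.23 and 4.46 CPM. All 3 were high in ccl5 replicates 1 and 3 only, as Tlr8 and Tlr9 were.

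Ctsb, cathepsin B, had 19247, 1938 and 19024 CPM against 4097, 4061 and 1914 CPM. Ctsl, cathepsin L, had 1856, 362 and 1944 CPM against 817, 807 and 387 CPM. These cathepsins followed the 3 steps of Tlr7 and Tlr13. Without ccl5 replicates 1 and 3 the number of proteases with a higher fold change was 3 of 5.

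Of 8 chaperones and transport proteins 5 had a higher fold change (median log2 value 0.12). Slc15a4, an endosomal transporter needed for TLR7 and TLR9 signals, measured 99.5, 37.9 and 106 CPM against 29.4, 26.5 and 35.6 CPM, without overlap. Slc15a3 measured 319.6, 37.3 and 304 CPM against 54.8, 55.9 and 36.6 CPM. Unc93b1, which carries the nucleic acid receptors to endosomes, measured 416, 227 and 368 CPM against 244, 232 and 199.5 CPM. Its range between libraries was thus narrower than that of Tlr8 or Tlr9.

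Of the 6 adaptors 4 had a positive log2 fold change. Myd88, the adaptor shared by nearly all of the receptors, measured 55.3, 55.9 and 47.3 CPM under CCL5 treatment and 37.3, 36.5 and 55.3 CPM without CCL5. Tirap, which bridges TLR2 and TLR4 to MyD88, measured 18.6, 29.4 and 18.4 CPM against 20.4, 20.6 and 26.6 CPM. For both, ccl5 replicate 2 and control replicate 3 were nearly equal.

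Ticam2, the bridge from TLR4 to TRIF, measured 34.97, 21.9 and 38.6 CPM against 14.9, 14.6 and 21.6 CPM. Ticam1, which encodes TRIF, measured 55.0, 26.3 and 47.5 CPM against 25.9, 28.3 and 27.4 CPM. Pik3ap1, which links the receptors to PI3K, measured 179, 82.0 and 159 CPM against 85.4, 73.5 and 76.0 CPM. These 3 were highest in ccl5 replicates 1 and 3. Sarm1 measured 11.5 CPM in ccl5 replicate 2 and 12.1 in control replicate 3, and under 1 CPM in each of the other libraries.

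**Figure D4:**
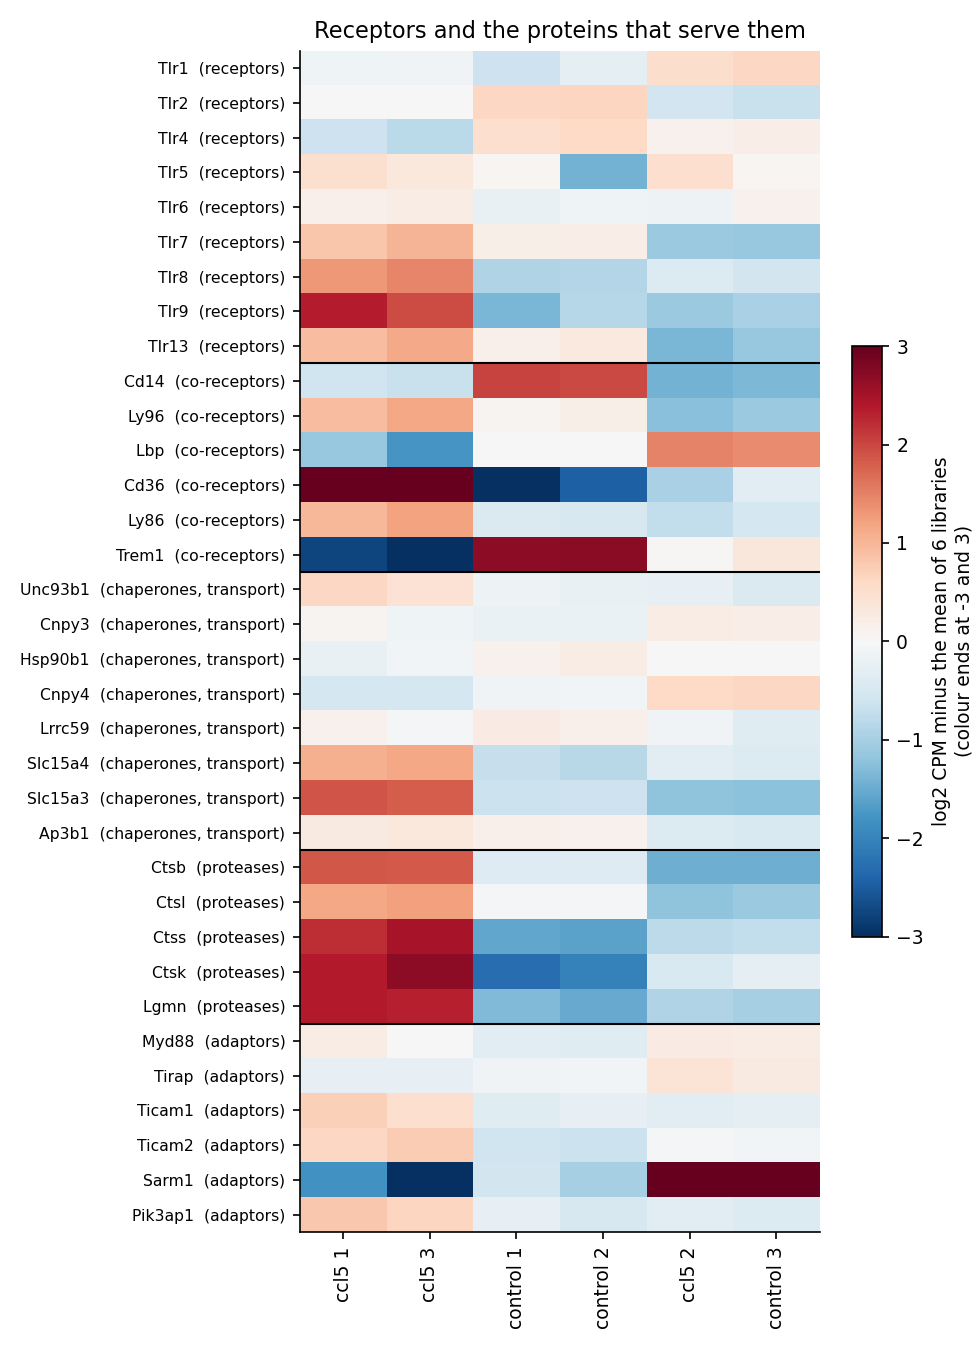
Colours give log2 CPM minus the mean of the 6 libraries for tested receptors, co-receptors, chaperones, proteases and adaptors (rows) in each library (columns, ordered by closely alike pairs). The columns of a pair look alike, Tlr8, Tlr9, Lgmn, Ctss, Ctsk and Cd36 are red in ccl5 replicates 1 and 3, and Cd14 and Trem1 are red in control replicates 1 and 2.

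Below the adaptors, 17 of 20 kinases and ubiquitin enzymes had a higher fold change, with a small median of 0.27 on the log2 scale. Ikbke, an IKK-related kinase, was an exception at 92.6, 119.8 and 100.4 CPM against 213, 195 and 127 CPM, without overlap. Tab1 (log2 fold change 0.40, SE 0.18) and Ikbkb (0.38, SE 0.18) had the next smallest p. Without ccl5 replicates 1 and 3 only 7 of the 20 had a higher fold change, so that count rested on this pair.

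Of 12 transcription factors below the receptors 11 had a higher fold change with all libraries and 4 without ccl5 replicates 1 and 3. Jun, a subunit of AP-1, measured 175, 24.2 and 165 CPM under CCL5 treatment and 28.0, 27.0 and 22.4 CPM without CCL5. Atf3, a stress-induced factor that limits receptor responses, measured 549, 30.5 and 605 CPM against 60.2, 58.6 and 34.9 CPM. Rel, an NF-kB subunit, measured 25.3, 11.7 and 26.2 CPM against 11.7, 10.3 and 11.99 CPM. All 3 were high in ccl5 replicates 1 and 3 only.

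Of 20 tested inhibitors of receptor signalling 12 had a positive and 8 a negative log2 fold change. Nfkbia, which encodes the NF-kB inhibitor IkBa and is itself an NF-kB target, measured 42.1, 68.0 and 46.0 CPM under CCL5 treatment and 263, 265 and 71.8 CPM without CCL5. The groups did not overlap, and control replicates 1 and 2 stood apart as they did for Cd14 and Trem1. Inpp5d, the phosphatase SHIP1, measured 226, 154 and 198 CPM against 129.6, 130.0 and 132 CPM, and Dusp1 had a log2 fold change of 1.40 (SE 0.46).

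Genes that receptor signalling induces in macrophages showed no common direction. Of 27 listed genes 19 were tested, 8 with a higher and 11 with a lower fold change. Tnf, the inflammatory cytokine, measured 2.85, 3.79 and 2.82 CPM under CCL5 treatment and 61.8, 75.8 and 4.07 CPM without CCL5. Ccl2, a monocyte chemoattractant, measured 8.05, 12.3 and 6.64 CPM against 64.1, 80.6 and 11.7 CPM. Both were high in control replicates 1 and 2, while control replicate 3 lay near the ccl5 libraries. Il1a was high in ccl5 replicates 1 and 3 instead, at 5.48, 0.672 and 6.83 CPM against 0.634, 0.480 and 0.770 CPM. Il6, Cxcl1 and Ifnb1 had 0 counts in all 6 libraries.

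For comparison, 10 of 14 pattern receptors of other families had a higher fold change, with a median log2 value of 0.21. Clec7a, the beta-glucan receptor dectin-1, measured 118, 42.9 and 153 CPM against 20.2, 23.6 and 46.3 CPM. Nod2, a sensor of muramyl dipeptide, measured 6.84, 4.09 and 6.74 CPM against 3.42, 3.73 and 3.30 CPM, without overlap. Mavs, the adaptor of cytoplasmic RNA sensors, had a log2 fold change of 0.70 (SE 0.37). Among the interleukin receptors that share the TIR domain, 1 of 5 tested had a higher fold change and the median log2 value was -1.21. Il18rap had a log2 fold change of -1.21 (SE 0.43), Il1rap of -1.48 (SE 0.53) and Il1r1 of -1.18 (SE 0.59). The difference between these lists and the receptors was not tested.

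**Figure D5:**
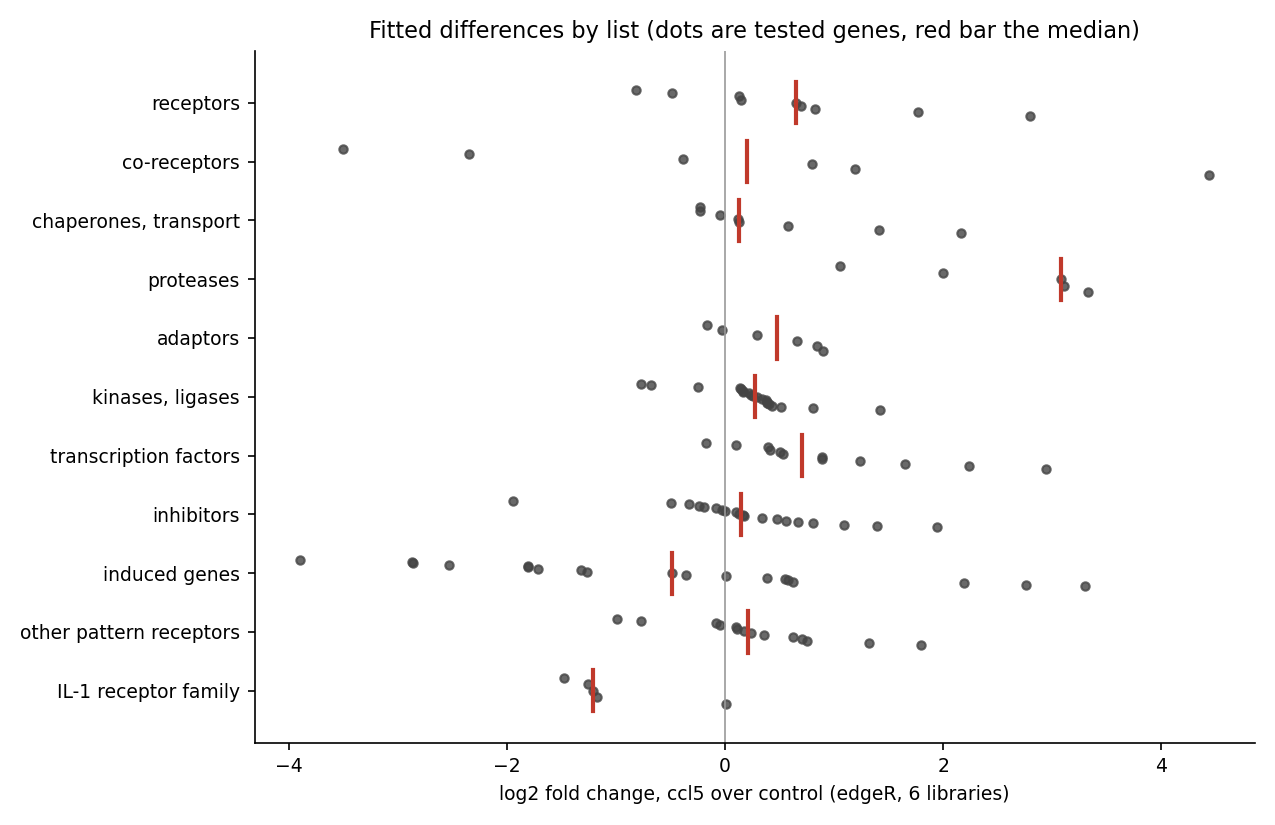
Dots give the log2 fold change of ccl5 over control (horizontal axis, edgeR, all 6 libraries) of each tested gene, by list (vertical axis), and red bars give the median. The protease median of 3.08 is the highest and that of the interleukin 1 receptor family, -1.21, the lowest.

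Markers of blood lineages also differed between the pairs of alike libraries. The 14 monocyte and macrophage markers, which include Ctss, were all tested. Their sums were 23503, 6062 and 27042 CPM for ccl5 libraries and 15275, 15011 and 6497 CPM for control libraries, the order of Tlr7 and Tlr13. The largest part of the sum was Lyz2, lysozyme, at 14736, 3024 and 17581 CPM against 10986, 10686 and 3344 CPM. Ly6c2, a marker of inflammatory monocytes, had another order, at 121, 1213 and 107 CPM against 1500, 1521 and 1278 CPM, and so did Ccr2, a monocyte chemokine receptor, at 457, 293 and 500.5 CPM against 922, 906 and 341 CPM. Itgam, which encodes CD11b, was highest in control replicates 1 and 2. The 12 neutrophil markers summed to 885, 14045 and 917 CPM for ccl5 libraries and 1295, 1340.0 and 13659 CPM for control libraries, so the sum was high where the summed endosomal receptors were low. Not all members followed the sum, and Mmp8, a neutrophil collagenase, was highest in ccl5 replicates 1 and 3, at 465, 249.7 and 533 CPM against 44.1, 35.6 and 286 CPM. Csf3r, the receptor for the neutrophil growth factor G-CSF, was also highest there, at 233, 193 and 233 CPM against 68.3, 63.2 and 200.3 CPM. Elane, a neutrophil granule protease, measured 24.8, 4548 and 12.8 CPM under CCL5 treatment and 219.7, 226 and 4360 CPM without CCL5. Csf1r, the macrophage growth factor receptor, measured 406, 82.0 and 370.0 CPM against 111, 107 and 77.6 CPM.

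Among markers of other lineages, most were near the floor and a few were not. Of 10 dendritic cell markers 4 were tested, and Zbtb46 and Clec9a stayed under 1 CPM in every library. Tcf4, a transcription factor of plasmacytoid dendritic cells, measured 232, 32.6 and 225 CPM against 272, 282 and 32.7 CPM, and Itgax, which encodes CD11c, measured 123, 2.81 and 94.8 CPM against 101, 108 and 3.25 CPM. Both were low in ccl5 replicate 2 and control replicate 3. Of 10 B-lineage markers 3 were tested, Rag1 had 0 counts in all libraries, and Pax5 was under 1 CPM throughout. Blnk, a signalling adaptor of B cells, measured 34.3, 2.69 and 33.1 CPM against 0.0634, 0.0533 and 3.14 CPM and was high in ccl5 replicates 1 and 3, and Cd79b, a subunit of the B-cell receptor, measured 14.96, 10.5 and 12.7 CPM against 13.1, 15.9 and 11.1 CPM. The T-cell list summed to 56.2 to 1132 CPM with CCL5 and 67.7 to 209 CPM in controls, nearly all of it from Il7r, with Cd3e, Cd3g and Cd4 under 1 CPM. None of 6 natural killer and 7 erythroid markers was tested, with Ncr1, Gzmb, Hba-a1 and Hbb-b1 at 0 counts in all libraries. Of 8 stromal and endothelial markers 3 were tested, and Pecam1 made up nearly all of their sum. The part of these lineage markers in the receptor values was not tested.

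The genes whose log2 CPM was most like each receptor over the 6 libraries were found by Pearson correlation among about 10260 well-expressed genes. Because the libraries form 3 pairs, many genes correlate closely with most of the receptors, and these values are a description. For Tlr9 the closest were Lrrc8b, Ptdss2 and Cd74 (r of 0.998 or more), and 861 genes exceeded 0.95. Cd74, the invariant chain of MHC class II, measured 70.4, 1.099 and 56.0 CPM under CCL5 treatment and 0.951, 1.92 and 1.82 CPM without CCL5. Tlr8 was closest to Xpr1, Fam122b and Spg20, Tlr7 to Btg1, Arhgap25 and Tmem9, and Tlr13 to Ube2q2, Atp7a and Syt8, each at r of 0.999.

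The surface receptors had other neighbours. Tlr2 was closest to Dnm1, Slc30a6 and Inf2 (r of 0.999) and Tlr4 to Sgip1, Hif3a and Thyn1 (r of 0.999). Tlr1 was closest to Rfxank, Ccdc82 and Colq (r of 0.994, 0.993 and 0.991). For Tlr6 the highest correlations were lower, at 0.983 with Erlin2, 0.981 with Zfa and 0.973 with Vamp2, and 13 genes exceeded 0.95. Tlr5 reached 0.971 with Adprhl2, 0.959 with Oaz2 and 0.955 with Mon1a, with 4 genes above 0.95.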

How the data were processed

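Single-end sequencing of polyadenylated RNA gave reads of 100 bases, per the labels' protocols. Raw read counts of each gene were deposited, made with featureCounts 1.5.1 from primary alignments with the UCSC mm10 annotation and no strand option, per the file headers. Per the submitters' processing notes, tools included TopHat, Bowtie, Trimmomatic and DESeq2. The deposited exon length of each gene, per the file headers, was used for levels per kilobase.

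Counts were scaled by TMM and filtered with filterByExpr (minimum count 10), and ccl5 was compared with control across all genes with edgeR 4.0.16 (quasi-likelihood F test, two-sided, R 4.3.3), Benjamini-Hochberg adjustment and a threshold of 0.05. Standard errors were derived from the F statistic as the size of the log2 fold change over the root of F. Alternatives used DESeq2 1.42.0, limma 3.58.1 (voom), other filters and fewer libraries. Groups came from the treatment labels, which pair no libraries, so no block was fitted. Of 225 listed symbols 3 were not in the table.

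Named genes were the 10 members, all co-receptors, adaptors and proteases, the 3 smallest p in each other list, and 3 genes most like each member (average log2 CPM of at least 1, prior count 2, predicted genes passed over). Others, including markers and genes at 0, were chosen after their values were seen. Members and lists were chosen with earlier results of these data known.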

Additional observations from a re-analysis of the deposited data

How the results depend on the processing

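With all 6 libraries edgeR called 0 genes and 0 members. Leaving out each library in turn gave 0 to 3299 genes and 0 to 3 members. Without ccl5 replicate 2 there were 3299 of 12581 tested genes (26.2%) and 3 members. Without control replicate 3 there were 237 of 12579 tested genes and 0 members. DESeq2's Wald test called 199 genes (1.64%), and limma-voom with quality weights called 8097 genes (66.5%) and 7 members. The members' median log2 fold change of 0.65 was 0.40 with a filter of CPM over 1 in at least 3 libraries, which drops Tlr5. It was 0.32 to 0.83 when each library was left out in turn, 0.39 with primary transplant libraries only and -0.083 with only the libraries that have Y-linked reads. Signs were opposite with primary transplants only, where control replicate 3 stands alone and is assumed to vary like the ccl5 libraries, for Tlr1 (-0.39), Tlr2 (0.39) and Tlr6 (-0.090), each smaller than its SE. They were also opposite with the Y-linked libraries only, where ccl5 replicate 2 stands alone, for Tlr6 (-0.079), Tlr7 (-0.98), Tlr9 (-0.083) and Tlr13 (-1.25). For Tlr1 the value was -0.12 without ccl5 replicate 2 and -0.10 without control replicate 1. Its range was -0.12 to 0.59 when each library was left out in turn. Apart from these subsets of libraries the cause was not tested. DESeq2 size factors, no filter and adding up alike libraries, the last chosen after seeing the data, changed no count of called genes. The count of 3 members without overlap, beside 15.8% of all tested genes, was unchanged with DESeq2 size factors. It was also 3 with closely alike libraries averaged, which leaves 2 against 2. Groups of 2 overlap less readily than groups of 3, and the share of all genes was not computed there. The count was 2 with the CPM filter, under which Tlr5 was not tested. No paired analysis was possible because the ccl5 libraries carry no replicate numbers in the labels. At these depths small differences in Tlr3 and Tlr5 were not detectable.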
